A study of Mus musculus with 12 samples.

Results

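The proteasome subunit genes were taken as every row of the mRNA table whose symbol begins with Psma, Psmb, Psmc, Psmd, Psme, Psmf or Psmg, which gave 50 of 22564 genes. They were followed in the basolateral amygdala (BLA), central to learned fear, of 12 male C57BL/6J mice aged 10 weeks, 3 in each of 4 groups with 1 library per mouse. Mice of the RE group (retrieval-extinction, libraries RE 3, RE 4 and RE 5) were fear conditioned by pairing a tone with foot shock, and on the next day heard a single reminder tone before extinction, that is, repeated tones without shock. Mice of the E group (extinction, E 1 to E 3) were conditioned and extinguished with no reminder. Mice of the F group (fear memory formation, F 1 to F 3) were conditioned only, and control mice (control 1 to control 3) went through the conditioning session without shock. RE and E tissue was taken after the last extinction session and F and control tissue after conditioning, so that training day and treatment cannot be told apart when RE or E is set against F or control.

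The 26S proteasome degrades proteins that carry chains of ubiquitin. Its 20S core is a barrel of 2 outer alpha rings and 2 inner beta rings, and 3 beta subunits hold the proteolytic sites. A 19S cap of ATPases and non-ATPase subunits binds the ubiquitin chain, removes it and feeds the unfolded substrate into the core. Activators of the PA28 and PA200 kinds can bind the core in place of the cap, and in immune cells interferon exchanges the catalytic subunits for inducible ones. Proteasome activity in the amygdala is studied because a retrieved memory can become labile through degradation of synaptic proteins. The values here are RNA levels and say nothing of proteasome activity.

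Depth ran from 7653980 (E 1) to 23167439 (control 1) mRNA fragments per library. Levels are FPKM, fragments per kilobase of transcript and per fixed number of mapped fragments, and can therefore be compared between genes. A set of 4 libraries, 1 per group, stood apart on the main component of lncRNA expression (18.4% of variance): RE 4, E 2, F 1 and control 2. Mitochondrially encoded genes made up 4.85 to 5.57% of all FPKM in these 4 libraries and 6.84 to 13.9% in the other 8. These shares are uncertain, as single genes were erratic, with mt-Co1 at 8783 FPKM in control 1 and 0.00187 FPKM in control 3. The 5 markers fixed for the BLA and its principal neurons (Rspo2, Etv1, Slc17a7, Neurod6 and Tbr1) were detected in all 12 libraries, with Rspo2 lowest at 0.945 FPKM in E 2. Their levels were not even over the groups. On average 5 of 5 were higher in RE than in E mice and 0 of 5 in E than in F mice, though 0 passed after adjustment (limma). In such bulk tissue, fewer cells of a type and less RNA per cell cannot be told apart.

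A mean of at least 0.5 FPKM over the 12 libraries was required for testing, which 47 of the 50 members met. The exceptions were Psmb9 (0.423 FPKM), the testis alpha subunit Psma8 (0.113 FPKM) and the thymus beta subunit Psmb11 (0.0142 FPKM). The 31 standing subunits among the members, 14 of the core and 17 of the cap, lay close together in level. Their means were between 19.4 FPKM (Psma5) and 81.4 FPKM (Psmb6), a 4.2-fold span. Shfm1, a cap subunit without the prefix, was at 15.1 to 20.4 FPKM over the 12 libraries. The 7 members that are assembly chaperones, and no part of the finished particle, were all lower, at 4.86 to 13.8 FPKM. This does not hold for Pomp, a core chaperone without the prefix, at 63.0 to 97.8 FPKM over the 12 libraries. Psmc3ip (0.863 FPKM) carries the prefix but encodes a cofactor of meiotic recombination and no subunit, and Psme2b (4.74 FPKM) is a close relative of Psme2 with which it may share reads. In the annotation 24 members overlap another gene, 19 of them one on the opposite strand, and the values of such genes are uncertain where reads were counted without strand.

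**Figure D1:**
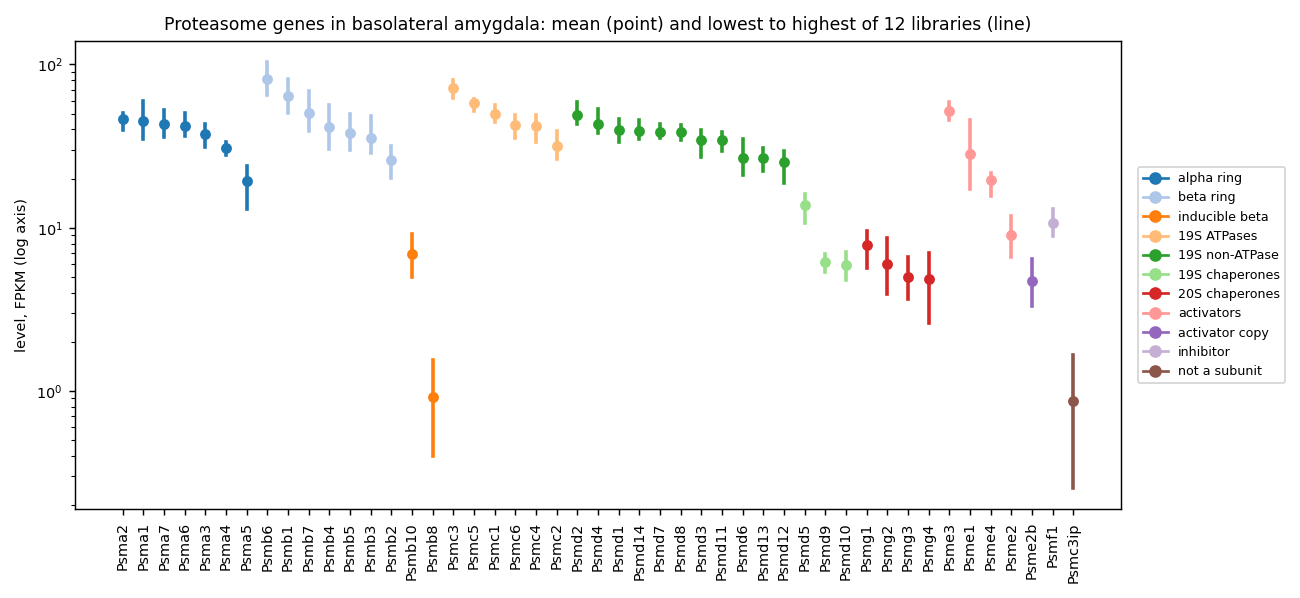
Level of each of the 47 tested genes in FPKM on a log axis, by part of the proteasome. Points are means over 12 libraries and lines run from the lowest to the highest library; the standing subunits lie between means of 19.4 and 81.4 FPKM, the chaperones between 4.86 and 13.8 FPKM, and the inducible Psmb8 at 0.922 FPKM.

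The alpha ring, which gates entry to the core, was led by Psma2 (46.3 FPKM over the 12 libraries) and ended with Psma5 (19.4 FPKM). Neighbours in this order overlapped in range down to Psma4 (28.0 to 33.6 FPKM), while Psma5 (13.0 to 24.0 FPKM) lay below Psma4 in every library range. Psma7 was 40.1, 48.7 and 48.1 FPKM in RE 3, RE 4 and RE 5, 36.1, 47.3 and 36.5 in E 1 to E 3, 43.3, 40.4 and 37.5 in F 1 to F 3, and 43.1, 52.8 and 46.2 in control 1 to control 3. The groups overlapped, and the comparison with the smallest p for Psma7, E against control, did not pass (limma, log2 fold change -0.25 ± 0.13 SE, adjusted p = 0.995).

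The beta ring was led by Psmb6 (81.4 FPKM), followed by Psmb1 (64.3 FPKM) and Psmb7 (50.7 FPKM). Psmb5 encodes the subunit with chymotrypsin-like activity, the usual target of proteasome inhibitors. Its level was 34.9, 49.9 and 29.9 FPKM in the RE mice, 32.8, 45.5 and 37.4 in the E mice, 48.4, 36.6 and 31.6 in the F mice, and 33.8, 44.7 and 32.2 in the control mice, each in the order of the library numbers. In each group the library that stood apart was the highest, and the groups overlapped throughout. Psmb6, with caspase-like activity, was 65.0, 91.0 and 77.4 FPKM in the RE mice, 73.2, 94.7 and 65.3 in the E mice, 95.3, 79.3 and 72.2 in the F mice, and 83.8, 103.5 and 75.5 in the control mice. Psmb7, with trypsin-like activity, was 39.4, 68.4 and 47.3 FPKM in the RE mice, 48.4, 56.2 and 48.5 in the E mice, 60.9, 46.1 and 43.1 in the F mice, and 46.7, 57.2 and 45.8 in the control mice. The same 4 libraries were again the highest of their groups for both genes.

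For the catalytic subunits, RE against E gave log2 fold changes of -0.03 for Psmb5 (95% interval -0.50 to 0.43), 0.01 for Psmb6 (-0.37 to 0.38) and -0.02 for Psmb7 (-0.43 to 0.40). Fold changes here and below are on the log2(FPKM + 0.1) scale and come from limma over all 12 libraries. Each interval lay inside a 1.5-fold difference (0.58 on this scale). Among the structural beta subunits, Psmb2 was 20.3, 31.5 and 23.2 FPKM in the RE mice, 21.4, 24.8 and 25.2 in the E mice, 30.3, 23.8 and 23.0 in the F mice, and 29.1, 27.4 and 30.2 in the control mice. All 3 E libraries were below all 3 control libraries, yet the difference did not pass (log2 fold change -0.28 ± 0.16 SE, adjusted p = 0.995). Psmb3 was 33.3, 48.2 and 36.2 FPKM in the RE mice and 39.7, 30.0 and 28.9 in the F mice, and these groups overlapped (0.25 ± 0.17 SE, adjusted p = 0.813).

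The inducible counterparts were low. Psmb8, which replaces Psmb5 in the immunoproteasome, was 0.401, 1.24 and 0.665 FPKM in the RE mice, 1.06, 0.481 and 1.54 in the E mice, 0.955, 0.737 and 1.05 in the F mice, and 1.02, 0.942 and 0.985 in the control mice. Its share of the Psmb5 and Psmb8 levels combined was 1.05 to 3.95%, with a median of 2.30%. Psmb9, the counterpart of Psmb6, ran from 0.042 FPKM in RE 4 to 0.963 FPKM in E 2, and its 3 RE libraries (0.073, 0.042 and 0.207 FPKM) included the lowest pair of the 12. It overlaps Tap1 on the other strand and was not tested.

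Psmb10, the counterpart of Psmb7, was the highest of the inducible genes at 5.77, 9.13 and 4.96 FPKM in the RE mice, 5.41, 6.62 and 7.11 in the E mice, 8.44, 7.69 and 6.15 in the F mice, and 6.15, 8.03 and 6.81 in the control mice. It made up 9.49 to 14.3% of the combined Psmb7 and Psmb10 level. The groups overlapped for Psmb8 and Psmb10, with adjusted p between 0.826 and 0.999 for both in all 6 comparisons. The interval for Psmb8 in RE against E was wide (log2 fold change -0.37, 95% interval -1.27 to 0.53), and included a level more than 2-fold lower in RE mice. The file's intervals spanned more than 3 times the gene, with overlapping genes merged, for 6 members, at 276 times for Psme2b, 176 times for Psmg3, 82.0 times for Psmd4, and 3.17 to 4.98 times for Psmd1 and Psmb8, with Psmb10 between Psmb8 and Psmd4.

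In the 19S cap the ATPases, which unfold substrates, were led by Psmc3 (71.4 FPKM) and Psmc5 (58.3 FPKM) and ended with Psmc2 (31.6 FPKM). The non-ATPase subunits lay between 25.3 FPKM (Psmd12) and 49.0 FPKM (Psmd2), with the ubiquitin receptor Psmd4 at 43.2 FPKM and the deubiquitinating subunit Psmd14 at 39.0 FPKM. Psmc6 had the smallest p of any member in RE against E. Its level was 35.5, 49.0 and 36.1 FPKM in RE 3, RE 4 and RE 5, 46.6, 47.1 and 47.4 in the E mice, 43.2, 41.4 and 40.2 in the F mice, and 39.998, 42.1 and 38.8 in the control mice. The E libraries were nearly equal and above every F and control library, whereas RE 3 and RE 5 were the lowest of all 12 and RE 4 was the highest. The difference did not pass the test (RE against E, log2 fold change -0.24 ± 0.11 SE, adjusted p = 0.502). Without RE 4 it was -0.39 (adjusted p = 0.0691).

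Psmd13, a cap subunit, was 26.3, 29.1 and 22.9 FPKM in the RE mice, 30.8, 28.2 and 27.9 in the E mice, 26.5, 24.8 and 27.0 in the F mice, and 25.7, 27.4 and 22.3 in the control mice. Every E library was above every F and control library (E against control, log2 fold change 0.21 ± 0.11 SE, adjusted p = 0.995). Psmd7, which pairs with Psmd14 in the cap, was 38.7, 35.5 and 36.7 FPKM in the F mice and 37.7, 43.3 and 39.7 in the control mice, with overlap (-0.12 ± 0.09 SE, adjusted p = 0.896).

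Of the assembly chaperones, Psmg1 and Psmg2 act as a pair on the alpha ring, as do Psmg3 and Psmg4. Psmg4 was 4.91, 6.97 and 5.63 FPKM in the RE mice, 2.60, 4.53 and 5.16 in the E mice, 6.76, 3.76 and 4.98 in the F mice, and 4.17, 5.17 and 3.61 in the control mice. It had the largest log2 fold change of the members in RE against E, 0.54 ± 0.27 SE with RE 3 below E 3 and no call (adjusted p = 0.538). For its partner Psmg3 the log2 fold change was -0.05 (95% interval -0.54 to 0.43). Psmg1 was 7.004, 9.01 and 5.66 FPKM in the RE mice, 9.47, 9.55 and 7.06 in the E mice, 8.23, 6.75 and 7.03 in the F mice, and 8.43, 8.81 and 7.61 in the control mice (RE against E, -0.28 ± 0.18 SE, adjusted p = 0.675).

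The activators held the smallest p of the members in 4 of the 6 comparisons. Psme3 encodes PA28 gamma, a nuclear activator that degrades proteins without ubiquitin. It was 47.9, 50.8 and 48.1 FPKM in the RE mice, 53.4, 55.9 and 49.1 in the E mice, 56.7, 58.2 and 58.9 in the F mice, and 45.8, 47.9 and 52.6 in the control mice. All F libraries were above all RE, E and control libraries. The log2 fold change was 0.25 ± 0.08 SE in F against control (adjusted p = 0.474) and -0.24 ± 0.08 SE in RE against F (adjusted p = 0.651), and neither passed after adjustment over all genes. These comparisons share the F libraries.

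Psme4 encodes PA200, a large single-chain activator of the core. It was 21.4, 21.6 and 21.2 FPKM in the RE mice, 19.1, 17.8 and 19.5 in the E mice, 17.8, 19.9 and 21.3 in the F mice, and 15.6, 17.9 and 20.3 in the control mice. All RE libraries were above all E and all control libraries and differed among themselves by less than those of any other group. The log2 fold change was 0.19 ± 0.11 SE in RE against E (adjusted p = 0.630) and 0.26 ± 0.11 SE in RE against control (adjusted p = 0.442). A sense-overlapping lncRNA at Psme4 (1912 nt) was listed at a mean of 2.58 FPKM, so that reads of the 2 may be shared.

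Psme1 and Psme2 encode the alpha and beta subunits of interferon-inducible PA28. Psme1 was 21.3, 25.5 and 22.2 FPKM in the RE mice, 33.1, 23.0 and 24.6 in the E mice, 45.9, 29.5 and 17.3 in the F mice, and 26.1, 36.1 and 33.7 in the control mice. All RE libraries were below all control libraries (log2 fold change -0.46 ± 0.28 SE, adjusted p = 0.681), while the F mice spanned the whole range. Psme2 was 6.62, 11.8 and 7.12 FPKM in the RE mice, 9.25, 10.1 and 6.88 in the E mice, 7.80, 7.46 and 8.64 in the F mice, and 8.70, 11.8 and 11.5 in the control mice. All F libraries were below all control libraries for Psme2 (-0.41 ± 0.22 SE, adjusted p = 0.781). The inhibitor Psmf1 (PI31) was 9.25, 11.5 and 11.8 FPKM in the RE mice, 11.5, 10.9 and 9.61 in the E mice, 11.9, 10.1 and 8.95 in the F mice, and 10.0, 13.0 and 10.4 in the control mice, with overlap of all groups (RE against E, log2 fold change 0.01, 95% interval -0.31 to 0.34, adjusted p = 0.991).

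**Figure D2:**
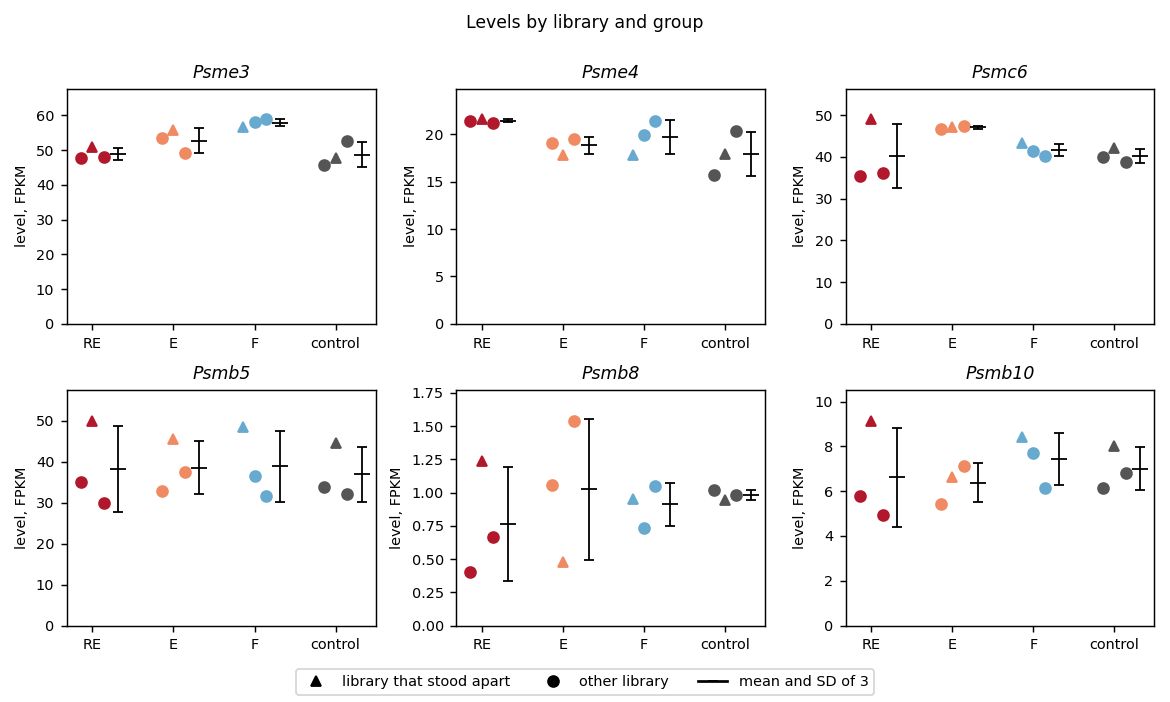
Level in FPKM of 6 members by library, with the groups RE, E, F and control from left to right. Triangles are the libraries that stood apart, circles the others, and bars the mean and SD of 3 libraries; Psme4 is at 21.2 to 21.6 FPKM in RE mice, Psme3 at 56.7 to 58.9 FPKM in F mice, and the triangle is the highest point of each group for Psmb5.

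The regions before the start sites of 4 members are shown because Psmb5 and Psmb6 were high in the libraries that stood apart and Psme3 and Psme4 were not, a choice made after their values were seen. Promoters of 300 bases, 250 before and 50 after the start, were taken from RefSeq (GRCm38.p6) and matched 42 of the 50 members. The 250 bases before the start are printed 5′ to 3′ on the strand of the gene. Capitals mark matches, on either strand, to CCGGAAG (the core letters of ETS family sites), TGACNNNGC (the core of the antioxidant response element, where N is any base) and CCAAT (read as ATTGG on the other strand), and no 2 of these overlapped in the printed bases. The regions are chr14:54617996-54618245 (minus strand) for Psmb5, chr11:70525107-70525356 (plus) for Psmb6, chr11:101315963-101316212 (plus) for Psme3 and chr11:30771525-30771774 (plus) for Psme4.
Psmb5: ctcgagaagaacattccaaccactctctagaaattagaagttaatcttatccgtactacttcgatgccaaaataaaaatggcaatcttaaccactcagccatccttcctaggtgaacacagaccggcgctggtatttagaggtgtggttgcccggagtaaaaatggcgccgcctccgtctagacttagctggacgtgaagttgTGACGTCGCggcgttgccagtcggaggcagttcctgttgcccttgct
Psmb6: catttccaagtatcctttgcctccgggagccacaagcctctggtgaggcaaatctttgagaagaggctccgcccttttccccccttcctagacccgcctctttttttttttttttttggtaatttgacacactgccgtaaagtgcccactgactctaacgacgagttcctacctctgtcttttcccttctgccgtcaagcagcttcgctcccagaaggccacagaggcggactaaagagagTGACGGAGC
Psme3: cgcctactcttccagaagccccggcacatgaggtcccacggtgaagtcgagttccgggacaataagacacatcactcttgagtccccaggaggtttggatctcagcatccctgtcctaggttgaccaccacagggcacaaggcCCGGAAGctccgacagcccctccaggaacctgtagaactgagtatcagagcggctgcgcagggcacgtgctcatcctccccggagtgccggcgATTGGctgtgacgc
Psme4: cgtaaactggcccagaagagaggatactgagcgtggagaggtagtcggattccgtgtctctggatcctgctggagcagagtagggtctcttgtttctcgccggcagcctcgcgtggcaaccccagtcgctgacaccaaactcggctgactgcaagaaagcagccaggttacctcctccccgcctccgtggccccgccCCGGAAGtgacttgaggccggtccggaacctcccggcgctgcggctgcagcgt

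The match in Psmb5 began 47 bases before the start and that in Psmb6 9 bases before it, whereas the CCGGAAG of Psme3 and Psme4 began 107 and 53 bases before theirs. In Psme4 a TGACNNNGC match on the other strand began 7 bases before the start, ran across it and is not capitalised, and a CCGGAAG match in Psme3 lay after the start. TGACNNNGC was found in 6 of 42 member promoters (14.3%), against 14.6% of 9948 promoters of tested genes. CCGGAAG was found in 14 of 42 (33.3%), against 17.0% of promoters of tested genes and 9.1% of all 27025 promoters. None of the 15 Psma and Psmb promoters held it and 14 of the 27 others did. CCAAT was in 35.7% of member promoters and 38.4% of those of tested genes. In all, 5 motifs were searched, and the remaining ones are not marked in the printed bases. TGACG was in 18 of 42 member promoters (42.9%, against 31.5% for tested genes), among them those of all members shown. TATAAA was in 4 of 42 (9.5%, against 6.7%). The promoters shown do not stand for all members. CCGGAAG was also in Psmc1, Psmc2 and Psmd4, in which every library that stood apart was above every other library. TGACNNNGC was also in Psmc6, Psmd9 and Psmd12, in which this was not so. These are matches of letters and were not tested.

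In schedule, RE mice differed from E mice by the reminder trial and by the stay in the home cage between it and extinction. RE against E is the comparison closest to memory updating. Of the 47 members, 0 passed at adjusted p under 0.05, where 0.614% of the 13517 tested genes did. At unadjusted p under 0.05 the count was also 0, against 10.4% of all tested genes. The median log2 fold change was -0.03 over the members and -0.05 over all genes, and 18 members were higher and 29 lower in RE mice. The 95% interval lay within a 1.5-fold difference for 39 of 47 members and within 2-fold for 44. Endothelial markers differed between these groups, with a sum over 6 genes of 36.4 to 48.3 FPKM in RE mice and 56.8 to 71.9 FPKM in E mice, 0 of 6 higher in RE mice, 2 past adjustment and none at 0. The sums of 4 other marker lists did not overlap between these groups either. GABAergic neuron markers summed to 141.0 to 172.9 FPKM in RE mice and 216.0 to 258.0 FPKM in E mice (0 of 3 higher, 1 past adjustment). Astrocyte markers summed to 242.8 to 266.2 FPKM in RE mice and 292.2 to 300.5 FPKM in E mice (1 of 5 higher), and hypothalamic markers to 65.4 to 147.0 FPKM in RE mice and 158.8 to 202.8 FPKM in E mice (0 of 6 tested higher). Pyramidal neuron markers went the other way, at 1281 to 1408 FPKM in RE mice and 821.9 to 1025 FPKM in E mice (5 of 5 higher in RE mice). The part of these lists in the member values was not tested.

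**Figure D3:**
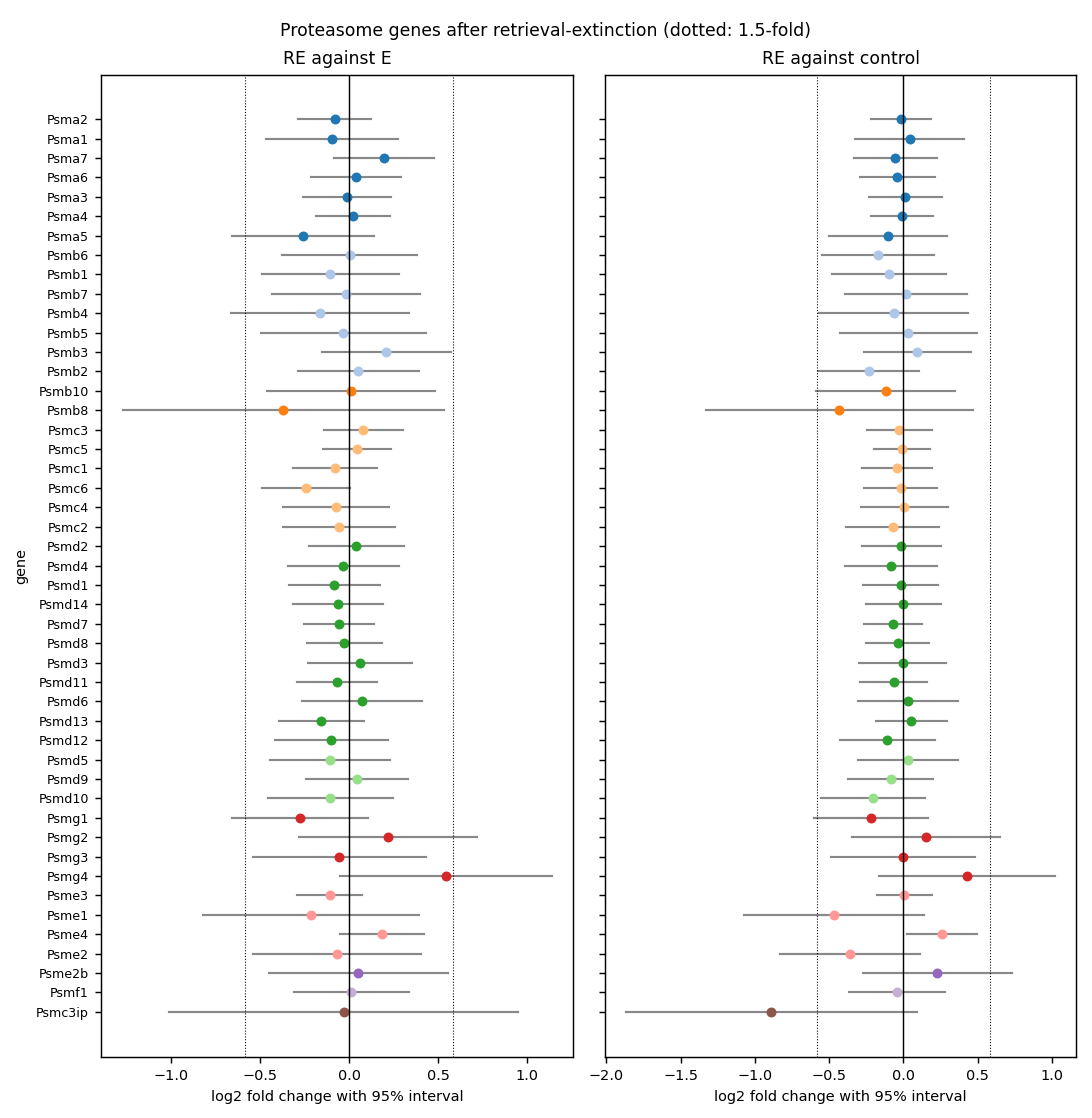
Log2 fold change of each tested member with its 95% interval (limma) in RE against E (left) and RE against control (right), in the order and colours of the level plot. Dotted lines mark a 1.5-fold difference; 39 and 38 of the 47 intervals lie between them, and in RE against control the interval of Psme4 excludes 0.

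In RE against control, 0 members passed at adjusted p under 0.05 (0.0666% of all tested genes did), and 1 member, Psme4, had an unadjusted p under 0.05 (9.65% of all). In E against control the counts were 0 (0.0% of all) and 0 (5.13%). In F against control they were 0 (0.0%) and 1, Psme3 (7.08%). In RE against F they were 0 (0.0%) and 1, again Psme3 (7.03%), and in E against F 0 (0.0814%) and 0 (10.8%). The share of members at unadjusted p under 0.05 was thus below the share of all genes in each comparison. Median log2 fold changes of the members were -0.03 in RE against control, -0.02 in E against control, -0.01 in F against control, -0.03 in RE against F and 0.02 in E against F, all within 0.05 of the median of all genes. Group means lay within 1.5-fold of each other for 46 of 47 members and within 1.2-fold for 40, with Psmc3ip as the exception (1.97-fold between the highest and lowest group).

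The summed level of the members varied more within groups than between their means. Summed over the 50 members, the level was 1566 to 1699 FPKM in the 4 libraries that stood apart and 1309 to 1438 FPKM in the other 8, with no overlap. By group the sum was 1458 ± 211 FPKM in RE mice, 1477 ± 77 in E mice, 1472 ± 106 in F mice and 1492 ± 100 in control mice (SD, n = 3 each). Of the 47 tested members, 42 were higher on average in the 4 libraries, with a median log2 difference of 0.20, against 0.11 over all tested genes, of which 67.7% were higher. For 12 members every one of the 4 libraries was above every one of the 8, as for 8.49% of all tested genes. These were the beta subunits Psmb1, Psmb4, Psmb5, Psmb6 and Psmb7, with Psma5, Psmc1, Psmc2, Psmd1, Psmd3, Psmd4 and Psmd8. Summed deubiquitinating enzymes (697.4 to 807.0 FPKM against 570.2 to 679.6) and other proteasome parts (323.9 to 362.3 against 260.6 to 319.7) were also higher in the 4 without overlap. The list of interferon response and antigen presentation was lower without overlap (63.96 to 77.88 against 79.74 to 94.24), and sums of the other ubiquitin pathway lists overlapped.

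**Figure D4:**
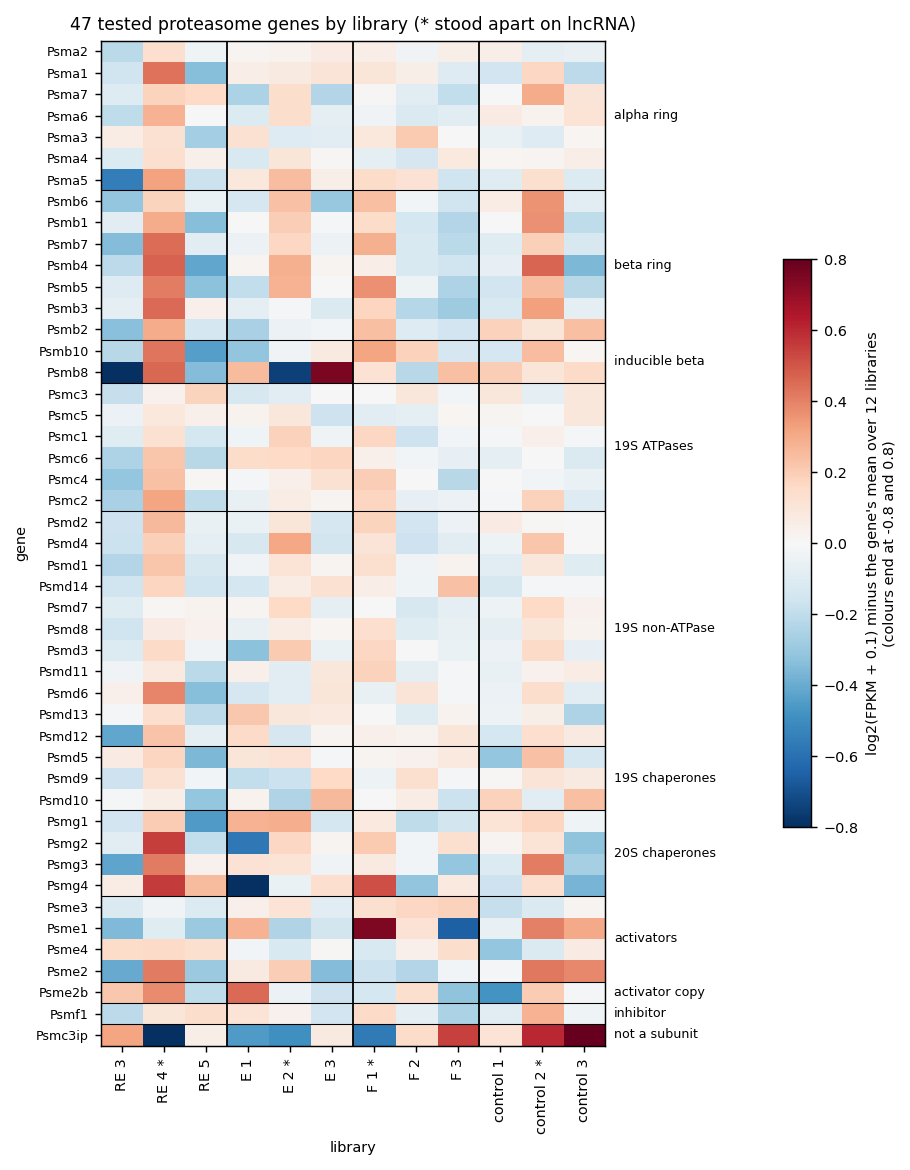
Deviation of each tested member from its own mean in each library, as log2(FPKM + 0.1), with groups RE, E, F and control from left to right and genes by part of the proteasome. Asterisks mark the libraries that stood apart; RE 4 was above the mean for 44 of 47 members and RE 3 for 7.

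The difference was not even over the particle. The 7 standing beta subunits had a median log2 difference of 0.38 between the 4 libraries and the other 8, with Psmb5 highest at 0.49. The 4 core chaperones among the members had 0.38. The alpha ring had 0.16, the ATPases 0.16 and the non-ATPase subunits 0.14. Inducible subunits and activators were mixed, with 0.36 for Psmb10, 0.33 for Psme2, 0.31 for Psme1 and 0.03 for Psme3. The 5 members that were lower in the 4 libraries were Psmc3ip (-0.67), Psmd10 (-0.10), Psme4 (-0.08), Psmc3 (-0.04) and Psmb8 (-0.03). RE 4 held the highest value of 22 members and RE 3 the lowest of 18. The libraries were sorted here by a component of lncRNA expression and not by their labels, so that no test is given. The mitochondrial share given above was the lowest of its group in each of the 4. Sums of hypothalamic markers overlapped between the sets (7 genes, 147.0 to 356.4 FPKM in the 4 and 65.4 to 210.9 in the 8, with 4 of the 7 at 0 in at least 1 library). They were the highest of their group in RE 4, F 1 and control 2, and the lowest in E 2. By gene, all 6 tested hypothalamic markers were higher on average in the 4 (median log2 difference 1.76). Sums of striatal spiny neuron markers also overlapped (145.0 to 682.4 FPKM against 272.4 to 958.3, over 6 genes, none at 0). They were the lowest of their group in RE 4, F 1 and control 2 and the highest in E 2. By gene, 0 of the 6 striatal markers were higher on average in the 4 (median log2 difference -1.33). The part of these lists in the member difference was not tested.

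**Figure D5:**
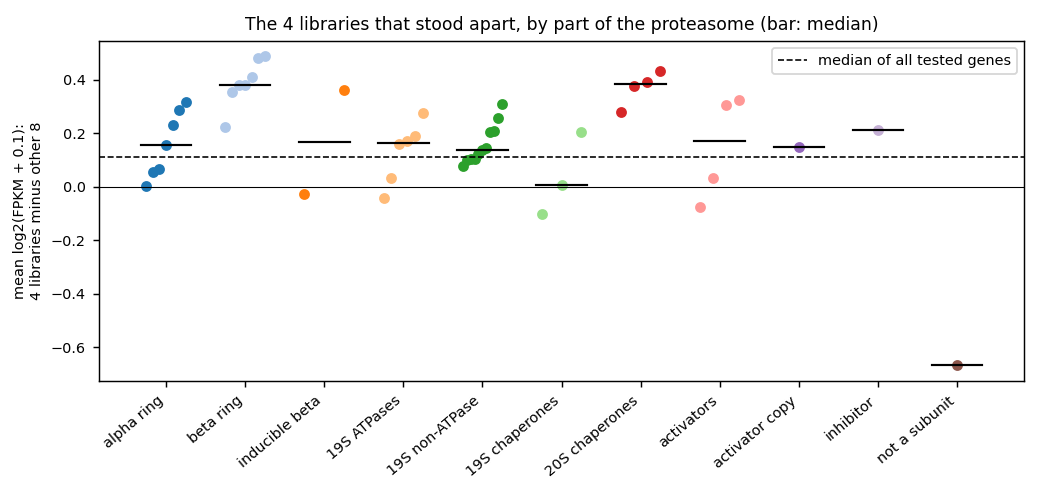
Mean log2(FPKM + 0.1) in the 4 libraries that stood apart minus that in the other 8, for each tested member by part of the proteasome. Bars are medians and the dashed line is the median of all tested genes (0.11); all 7 standing beta subunits and all 4 core chaperones lie above it.

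Since RE 4 was the highest RE library and RE 3 and RE 5 were the lowest 2 of the 12 by sum, the RE comparisons depended on it. Without RE 4, the median log2 fold change of the members was -0.14 in RE against E (-0.09 over all genes), with 5 members lower at unadjusted p under 0.05 (9.54% of all genes were) and 40 of 47 lower in RE mice (64.5% of all genes were). It was -0.15 in RE against control (-0.06 over all genes), with 5 members lower (7.53% of all genes) and 44 of 47 on the lower side (60.2% of all genes), and -0.15 in RE against F (-0.07 over all genes), with 8 members lower (8.52% of all genes). None passed after adjustment (smallest adjusted p 0.0691). The libraries that stood apart in the other groups, each the highest of its group by sum, were kept in these fits. Leaving out RE 4 alone therefore built in a shift of RE to lower levels, and these values cannot show a lower level in RE mice. The fits that follow are balanced in this respect. With only the 8 libraries that did not stand apart, 2 per group, the median was -0.13 in RE against E (-0.06 over all genes), -0.10 in RE against control (-0.01) and -0.08 in RE against F (-0.04), and 8 (11.8% of all genes), 4 (7.74%) and 6 (8.63%) members were lower at unadjusted p under 0.05. Again none passed after adjustment, and the smallest adjusted p was 0.0666, for Psmc6 in RE against E. Both subsets share RE 3 and RE 5 and are not independent of each other.

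Other genes of the ubiquitin pathway, its regulators and antigen presentation were taken from 8 lists, of which 89 genes were tested. In RE against E, 0 passed after adjustment, and 1 was higher and 4 lower at unadjusted p under 0.05, where 0.614% and 10.4% of all tested genes met these criteria. None passed in the other 5 comparisons (smallest adjusted p 0.160). The genes that follow were among the 3 with the smallest p of their list in RE against E. The class I molecule H2-K1, which displays proteasome products, was 5.56, 5.14 and 4.63 FPKM in the RE mice, 7.40, 8.32 and 6.72 in the E mice, 5.53, 5.42 and 5.09 in the F mice, and 5.72, 5.28 and 5.13 in the control mice. Every E library was above every other library (RE against E, log2 fold change -0.54 ± 0.12 SE, adjusted p = 0.0956). H2-D1 (-0.54 ± 0.17 SE) and the peptide transporter subunit Tap2 (-0.60 ± 0.24 SE) had the same sign without passing (adjusted p = 0.230 and 0.389).

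The ligase Park2 was 4.33, 5.91 and 6.56 FPKM in the RE mice and 1.67, 5.42 and 2.53 in the E mice (0.93 ± 0.33 SE, adjusted p = 0.313). The conjugating enzyme Ube2d1 (-0.25 ± 0.11 SE, adjusted p = 0.468), the activating enzyme Uba6 (-0.24 ± 0.11 SE, adjusted p = 0.506) and the regulator subunit Nfya (-0.52 ± 0.26 SE, adjusted p = 0.535) did not pass either. For the deubiquitinase Usp8, the cap-bound Txnl1 and the shuttle partner Ufd1l the log2 fold changes were -0.14, -0.16 and 0.14.

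Circular RNAs, in which a downstream exon end is joined to an upstream exon start and which are counted by reads over that junction, were listed for 16 member genes. There were 31 circles among 13957 in all, 28 of them exonic, and 5 had at least 10 reads over the 12 libraries. The junctions of the 3 with the most reads are shown as 25 bases from the end of the last exon in lower case and 25 bases from the start of the first exon in capitals, read from GRCm38. All were flanked by AG and GT in the genome and both ends lay in coding exons. In the exon numbers of GENCODE M21, they are the circles of Psma6 exons 2 to 6 (chr12:55407469-55414498), Psmc6 exons 5 to 12 (chr14:45334653-45343727) and Psmd1 exons 9 to 10 (chr1:86083147-86085270), all on the plus strand.
Psma6: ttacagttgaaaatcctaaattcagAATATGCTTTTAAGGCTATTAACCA
Psmc6: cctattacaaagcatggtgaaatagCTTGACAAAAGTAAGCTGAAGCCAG
Psmd1: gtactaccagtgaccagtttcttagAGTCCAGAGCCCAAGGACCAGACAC

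The Psma6 circle had 5, 3 and 1 reads in the RE mice, 3, 6 and 2 in the E mice, 4, 3 and 2 in the F mice, and 4, 6 and 2 in the control mice. The Psmc6 circle had 5, 0 and 3 reads in the RE mice, 2, 9 and 0 in the E mice, 2, 1 and 2 in the F mice, and 3, 3 and 0 in the control mice. RE 4, where Psmc6 mRNA was highest, had no read of this circle, which allows a share of up to 0.015% of its 20028 junction reads, and 2 reads of another of the 3 Psmc6 circles listed. The Psmd1 circle had 5, 7 and 3 reads in the RE mice, 2, 4 and 1 in the E mice, 0, 4 and 1 in the F mice, and 1, 1 and 1 in the control mice. Its RE libraries were above all control libraries, on totals of 15, 7, 5 and 3 reads in RE, E, F and control. All member circles together were 0.154, 0.195 and 0.082% of junction reads in the RE mice, 0.164, 0.174 and 0.0748% in the E mice, 0.101, 0.112 and 0.126% in the F mice, and 0.0469, 0.122 and 0.0445% in the control mice. The exact 95% binomial interval was 0.0424 to 0.143% for RE 5 and 0.0234 to 0.0839% for control 1, and covers counting error only. These counts are too low for a comparison of groups and were not tested.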

How the data were processed

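Ribosomal RNA was removed from total RNA and directional libraries were sequenced. Per the study's methods, reads were trimmed with cutadapt, aligned to mouse mm10 with HISAT2 and quantified with cuffdiff, and circRNAs were found with STAR and DCC. In the submitters' processing notes CASAVA 1.8, BWA and the human build hg19 are named, yet 99.88% of shared gene IDs overlapped their GENCODE M21 gene on mouse GRCm38. The authors deposited mRNA and lncRNA levels as FPKM. Beside them the deposited mRNA table holds a signal per library, an estimated number of fragments scaled between libraries, used here only for depth. Fragments were taken as multiples of the value of 1 fragment, and 90.8 to 91.6% of values were whole within 0.05, so no count test was run. The deposited circRNA table holds a raw count of junction reads. Fold change and p-value columns of the authors were not used.

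For each level log2(FPKM + 0.1) was taken, and limma 3.58.1 under R 4.3.3 (empirical Bayes, trend on the mean) was fitted to the 13517 genes whose mean reached 0.5 FPKM, with all 12 libraries in 1 fit, 6 contrasts, two-sided p-values and Benjamini-Hochberg adjustment over all tested genes within a contrast. Members were counted at adjusted and at unadjusted p under 0.05. Library values are given for the 4 members with the smallest p per contrast among those with a mean of at least 1 FPKM, and for the catalytic, inducible, activator and inhibitor genes. Pathway genes are up to 3 per list with the smallest p in RE against E, of which 1 is not reported here. Members, lists and tests were chosen with earlier results of these data known. Each library was a separate mouse. Alternatives were a pseudocount of 1, no filter, quantile normalization, libraries centred on 1 median, 2 groups alone, a replicate block and each library left out. Added after seeing the data were library kind (the 4 libraries that stood apart or not) as a term and the other 8 libraries alone. The fit was tested on simulated data. Python 3.11.15 with pandas 2.3.3, numpy 2.4.6 and matplotlib 3.10.9 was used for the rest. Promoter and genome sequences are from RefSeq GRCm38.p6.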

Additional observations from a re-analysis of the deposited data

How the results depend on the processing

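No member passed at adjusted p under 0.05 under any of 84 alternative fits, and of 336 alternative values of the named members 335 kept their sign. The exception was Psme1 in RE against F, whose log2 fold change ran from -0.68 to 0.0207 when each library was left out and changed sign without F 1. The median log2 fold change of the members stayed within the replicate spread (0.10) except where RE 4 was left out and, in RE against control, with a replicate block (-0.15). A shift to a common median turned the median in RE against E to 0.02, and library medians were shifted by -0.09 to 0.12. The replicate block gave 4 members at unadjusted p under 0.05 in RE against E (6.28% of all genes). It gave 5 in RE against control (6.72%), 2 in E against control (4.38%) and 3 in RE against F (7.065%). Numbers 4 and 5 occur in RE alone, so that with the block RE is compared through RE 3, and same-numbered libraries did not deviate together (correlations of -0.305 to 0.236), so the numbers were not taken as pairs.

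Counts of members at unadjusted p under 0.05 moved as follows, with the share of all genes in the same comparison in brackets. Without a filter, which also let in the low Psmb9, Psma8 and Psmb11, there were 3 in RE against E (10.15%) and 4 in RE against control (8.73%). With a common median there were 2 each in RE against E (11.12%), E against control (5.13%), F against control (7.605%) and RE against F (7.39%). With quantile normalization there were 2 in RE against E (10.63%), 3 in E against control (5.38%) and 2 in F against control (7.42%). With 2 groups alone there were 3 in E against control (4.71%), 2 in F against control (6.53%) and 1 in E against F (12.93%). With library kind as a term there were 4 in RE against E (15.53%), 2 in RE against control (14.73%) and 4 in E against control (8.5%). The same fit gave 3 in F against control (11.55%) and 2 in RE against F (12.9%). With the other 8 libraries alone there were 9 in RE against E, 4 in RE against control, 5 in E against control, 2 in F against control, 7 in RE against F and 1 in E against F, where 17.3, 14.5, 9.17, 11.4, 13.3 and 14.1% of all genes met this criterion in the same order of comparisons. The share of all genes was 5.41 to 10.2% without a filter, 5.13 to 11.8% with a common median, 5.38 to 11.4% with quantile normalization, 4.71 to 12.9% with 2 groups alone, 8.50 to 16.2% with library kind as a term, 4.38 to 10.2% with the replicate block and 3.41 to 12.9% with each library left out.

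Leaving out each library in turn gave medians of -0.14 to 0.043 in RE against E, -0.15 to 0.0355 in RE against control, -0.04 to 0.03 in E against control, -0.08 to 0.03 in F against control, -0.15 to 0.0388 in RE against F and -0.02 to 0.07 in E against F. Counts at unadjusted p under 0.05 were 0 to 5 in RE against E and in RE against control, 0 to 1 in E against control, 1 to 1 in F against control, 1 to 8 in RE against F and 0 to 0 in E against F. The lowest medians and the highest counts of the RE comparisons came without RE 4, the library highest in member sum. The libraries that stood apart in the other groups were kept there, so that a shift of RE to lower levels was built in. With 3 mice a group, the typical 95% interval of a member, not adjusted for the number of genes, was 0.32 wide on each side on the log2 scale. Smaller differences could thus not be told from 0 for most members even before adjustment. Larger ones also went uncalled after it, such as 0.54 for Psmg4 in RE against E (limma, adjusted p = 0.538).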
